A study of Mus musculus with 6 samples.

Results

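Jag1, the gene of the Notch ligand Jagged1, was followed with 6 further genes of the same pathway in mouse immature dendritic cells exposed to hydrogen peroxide (H2O2). The 7 genes, of 17567 with a row in the count files, were Jag1, Notch1, Notch2, Adam10, Rbpj, Maml1 and Hes1. Their rows were found by NCBI Gene number. Jag1 was chosen for its rise after H2O2, so its values in that comparison are a description and carry no test. The other 6 were taken for their place in the pathway.

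The H2O2 group held cells that received H2O2 at 100 µM for 24 h, and the control group held cells without it. In both groups, marrow from the femur and tibia of male C57BL/6 mice, 6 weeks old, was grown with the cytokines GM-CSF (20 ng/mL) and IL-4 (10 ng/mL) and 10% serum. On day 6 the cells were purified on beads by CD11c, an integrin of dendritic cells. Such a culture is a model of a dendritic cell made by cytokines and not a cell taken from tissue. Each group had 3 labelled samples. Nothing in the labels ties them to separate mice or cultures, so p-values cover the spread of these samples alone, which may be technical.

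Notch receptors and their ligands sit on the surfaces of neighbouring cells, so the signal passes by contact. A ligand such as Jagged1 or a Delta-like protein, pulled into its own cell by endocytosis, opens a site on the receptor that the protease ADAM10 cuts. Gamma-secretase then frees the intracellular part of the receptor, which enters the nucleus, binds the DNA-binding protein RBPJ and a Mastermind-like coactivator, and turns on genes such as Hes1. In dendritic cells the pathway is known for the requirement of Notch2 and RBPJ in certain splenic and intestinal subsets, and for the ligands by which dendritic cells instruct T cells.

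A total of 5 distinct libraries was available, with totals of 16232604 to 16672491 estimated counts. All 17567 values of H2O2 replicate 3 were a copy of those of H2O2 replicate 1, so the pair was counted as 1 library, which left 2 H2O2 and 3 control libraries. The libraries also split by transcripts of 4 Y-linked genes, which summed to 96.4 CPM (counts scaled to library size) in H2O2 replicate 1 and 106 CPM in control replicate 1, called set A here. The sum was 0.427 CPM in H2O2 replicate 2, and 0.12 and 0.308 CPM in control replicates 2 and 3, called set B. All mice were labelled male. H2O2 was therefore compared with control within the sets, by edgeR's quasi-likelihood F test with a term for the set and Benjamini-Hochberg adjustment over all 12209 genes tested. That test called 1043 of them at an adjusted p of at most 0.05, which is 8.54%. In simulated data this model made a larger share of false calls than that threshold allows, which limits every call below. Without the set term edgeR called 0 genes (852 at an unadjusted p under 0.05). The count was 2058 without control replicate 1, 308 without control replicate 3 and 1 without H2O2 replicate 2.

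The 3 stretches of promoter are shown because they belong to the ligand and the receptor with the largest H2O2 differences among the Notch genes tested, Jag1 and Notch3, and to Rbpj, the DNA-binding partner of every Notch receptor. Each is the 250 bases before a start listed for the gene in RefSeq on GRCm38.p6, read 5′ to 3′ on the gene's strand. A listed start need not be the outermost one of the gene. Capitals mark matches to 1 of 4 motifs searched on both strands: the RBPJ core (TGGGAA), the core of the antioxidant response element (TGACNNNGC), the AP-1 site (TGANTCA) and the GC box (GGGCGG). The Jag1 window is chr2:137116521-137116770 (minus strand), the Notch3 window chr17:32166891-32167140 (minus strand) and the Rbpj window chr5:53590096-53590345 (plus strand).
Jag1: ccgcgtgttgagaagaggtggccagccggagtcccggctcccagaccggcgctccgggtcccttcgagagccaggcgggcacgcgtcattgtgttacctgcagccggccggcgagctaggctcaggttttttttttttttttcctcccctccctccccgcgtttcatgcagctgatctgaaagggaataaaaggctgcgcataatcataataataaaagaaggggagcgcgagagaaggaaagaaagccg
Notch3: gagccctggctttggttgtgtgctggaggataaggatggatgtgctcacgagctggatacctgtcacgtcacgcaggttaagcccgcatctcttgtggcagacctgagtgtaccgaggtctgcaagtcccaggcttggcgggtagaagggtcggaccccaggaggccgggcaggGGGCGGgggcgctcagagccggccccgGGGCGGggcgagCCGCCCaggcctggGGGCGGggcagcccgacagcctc
Rbpj: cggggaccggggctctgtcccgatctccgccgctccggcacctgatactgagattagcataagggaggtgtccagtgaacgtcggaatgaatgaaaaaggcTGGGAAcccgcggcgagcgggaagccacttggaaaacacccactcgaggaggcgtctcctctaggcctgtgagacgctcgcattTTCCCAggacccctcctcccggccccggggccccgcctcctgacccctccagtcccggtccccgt

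The Jag1 window held no match to these 4 motifs, which says only that the letters are not in this window. The Notch3 window held 4 GC boxes. The Rbpj window held 2 RBPJ cores, the first at position -149 from the start used. That start lies inside the span of the gene, chr5:53555779-53657445. The window of a second Rbpj start in the table, not shown, held 1 RBPJ core. Among 32851 promoter windows of the same length, 21.59% held an RBPJ core, 32.74% a GC box, 10.16% the antioxidant response element core and 6.749% the AP-1 site, so such matches are common and none is shown to be a site in use. Of the 7 genes, 6 had a window in the table. Notch1 and Notch2 held 5 GC boxes each, Adam10 3 and Maml1 2, and none of these 4 windows held an RBPJ core.

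Jag1 was the ligand with the most transcript in these cells and was higher in both H2O2 libraries than in any control library, as were 13% of all genes tested. It had 24.2 and 20.6 CPM in the H2O2 libraries (replicates 1 and 2), against 15.2, 7.43 and 5.43 CPM in the control libraries (replicates 1, 2 and 3). These values rest on 409 and 318 counts in the H2O2 libraries and on 261, 123 and 89 counts in the control libraries. The control of set A lay closer to the H2O2 libraries than the controls of set B did. The libraries are bulk RNA, in which fewer cells of a type and less RNA per cell cannot be told apart. Jag1 lies at chr2:137081451-137116520 on GRCm38, and no exon of another gene of the annotation overlapped it.

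The Jag1 difference within the sets was 1.22 ± 0.24 (SE) on the log2 scale, H2O2 minus control, or 2.33-fold. Within set A, H2O2 replicate 1 stood 0.67 above control replicate 1 on the log2 scale. Within set B, H2O2 replicate 2 stood 1.68 above the mean of control replicates 2 and 3. The within-set differences themselves differed by -1.01 ± 0.30, set A minus set B. No test is given for these values, because they come from the comparison by which Jag1 was chosen. Leaving out H2O2 replicate 2 gave 0.67, and leaving out control replicate 1 gave 1.67. With the set term, the first fit compares H2O2 and control within set A only and the second within set B only. Both therefore restate the within-set values.

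The level of Jag1 was also compared between the sets. Its choice did not use this comparison but did use the same libraries, low controls of set B included. The set difference is therefore not independent of that choice, and no test is given for it. Set A was higher than set B by 0.77 ± 0.24 on the log2 scale. Both set A libraries were above the set B libraries of their own treatment, at 24.2 against 20.6 CPM in the H2O2 libraries and 15.2 against 7.43 and 5.43 CPM in the control libraries. Of all genes tested, 36% differed between the sets. The Jag1 difference was 0.23 without control replicate 1, 0.77 without control replicate 2 and 0.58 without control replicate 3. Without H2O2 replicate 1 or H2O2 replicate 2 it was 1.24 or 1.23. Over all alternatives the difference lay between 0.23 and 1.24.

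**Figure D1:**
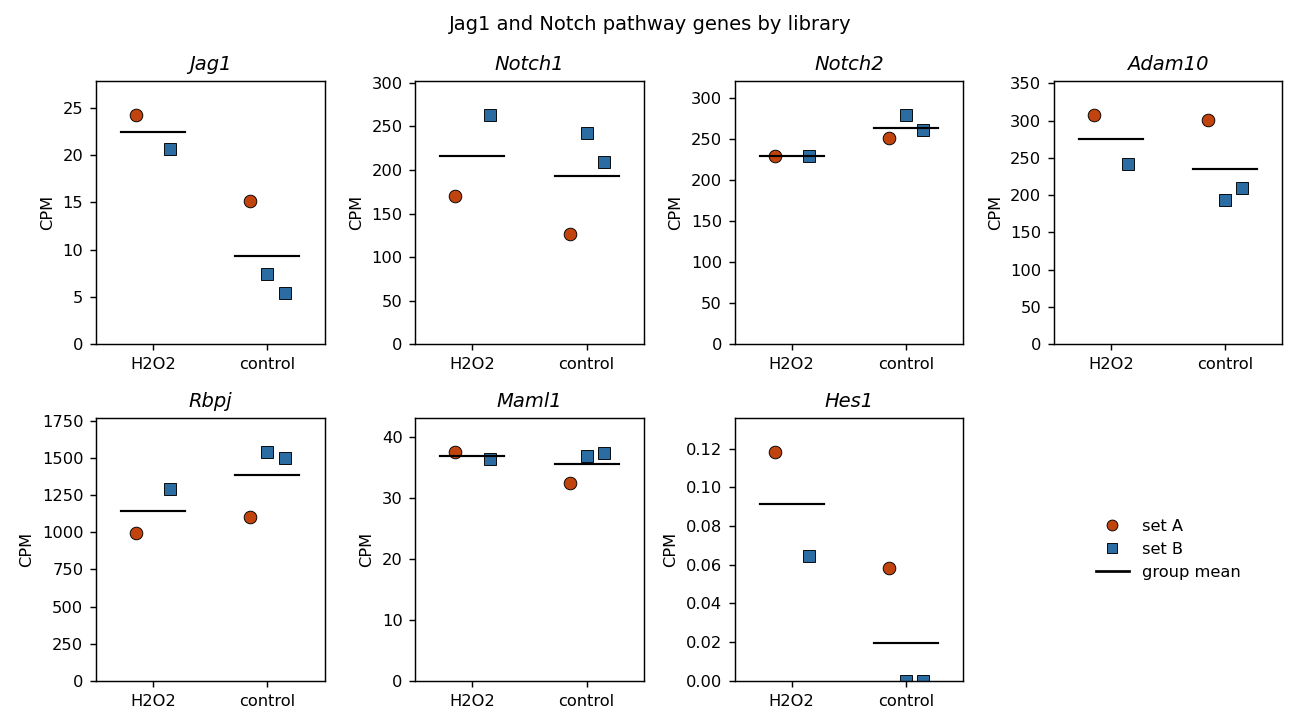
Normalised transcript level (CPM, each panel with its own axis from 0) of the 7 genes in the 2 distinct H2O2 libraries, at left in each panel, and the 3 control libraries, with circles for set A, squares for set B and a bar for the group mean. The Jag1 points at 24.2 and 20.6 CPM in the H2O2 libraries lie above all control points, while the receptor, Adam10 and Rbpj panels are spread at least as much between sets as between treatments, except for Notch2.

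The receptors Notch1 and Notch2 were both abundant, and neither passed the test. Notch1, the receptor best known for its part in T cell development, had 171 and 263 CPM in the H2O2 libraries, against 127, 243 and 209 CPM in the control libraries. The groups overlapped, since the set A libraries were the lowest of each treatment. The log2 difference was 0.31 ± 0.093, H2O2 minus control (edgeR's quasi-likelihood test with Benjamini-Hochberg adjustment, adjusted p = 0.0883). It was positive within each set, at 0.43 within set A and 0.22 within set B. Between the sets Notch1 differed by -0.74 ± 0.096, set A minus set B (adjusted p = 0.00158), so here the set difference was the larger of the 2.

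Notch2, the receptor needed by certain dendritic cell subsets, had 229.5 CPM in both H2O2 libraries, against 251, 279 and 262 CPM in the control libraries. Both H2O2 libraries lay below all 3 control libraries. The difference was small, at -0.19 ± 0.071 on the log2 scale, and did not pass the test (adjusted p = 0.139). Of all genes tested, 10.7% had both H2O2 libraries below every control library, so this pattern was common. Notch2 also showed no called difference between the sets (-0.06 ± 0.071, adjusted p = 0.537).

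Adam10 encodes the protease that makes the first cut of an engaged receptor. It had 307 and 242 CPM in the H2O2 libraries, against 301, 194 and 209 CPM in the control libraries. The groups overlapped, with both set A libraries at about the same level. The log2 difference was 0.17 ± 0.082, H2O2 minus control (adjusted p = 0.241, same test), and 0.03 within set A and 0.27 within set B. Set A was higher than set B by 0.48 ± 0.082 (adjusted p = 0.00504).

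Rbpj, the nuclear end of the pathway, was the most abundant of the 7 genes, also per kilobase of exon, with 995 and 1289.5 CPM in the H2O2 libraries, against 1105, 1539.5 and 1503 CPM in the control libraries. Each H2O2 library lay below the controls of its own set, while the groups overlapped when the sets were pooled. The log2 difference was -0.20 ± 0.068, H2O2 minus control, and did not pass the test (adjusted p = 0.113). Set A was lower than set B by a called amount, -0.42 ± 0.068 (adjusted p = 0.00386).

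Maml1, a Mastermind-like coactivator, varied least. It had 37.5 and 36.4 CPM in the H2O2 libraries, against 32.5, 36.9 and 37.4 CPM in the control libraries. The log2 difference of 0.07 ± 0.089 had an adjusted p of 0.636, and its sign turned without control replicate 1 (-0.037) or without H2O2 replicate 1 (-0.027). Between the sets it differed by -0.09 ± 0.089 (adjusted p = 0.461).

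Hes1, a transcriptional repressor and the best known target of Notch signalling, was barely detected. It had 2 counts in H2O2 replicate 1 and 1 count in H2O2 replicate 2, against 1 count in control replicate 1 and 0 counts in control replicates 2 and 3. A count of 0 allows up to 3 counts, or 0.18 to 0.185 CPM in these libraries, and all 5 values lay at or under that limit. Hes1 did not pass the filter on low counts and no fold is given. A difference between the groups was not detectable at this depth.

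Of the 6 genes other than Jag1, 5 passed the filter. None of these 5 was called in H2O2 against control, where 8.54% of all genes were. An unadjusted p under 0.05 was found for 3 of them (Notch1, Notch2 and Rbpj) and for 3398 of all 12209 genes tested. Between the sets 3 of the 5 were called: Adam10 was higher in set A, and Notch1 and Rbpj were lower in it, where 36% of all genes were called. The difference of the H2O2 effect between the sets was called for none of the 5 (smallest adjusted p 0.436, with 1 residual degree of freedom), where 0.0164% of all genes were called.

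Levels per kilobase of exon put the 7 genes in a clear order over the 5 libraries. Rbpj averaged 100.9 ± 18.8 CPM per kilobase (SD, n = 5), Adam10 51.0 ± 10.5, Notch2 23.2 ± 1.99, Notch1 14.2 ± 3.86, Maml1 6.54 ± 0.379, Jag1 2.50 ± 1.39 and Hes1 0.0237 ± 0.0245. The ranges of neighbours in this order did not overlap over the 5 libraries. Jag1 ran from 3.53 to 4.15 CPM per kilobase in the H2O2 libraries and from 0.931 to 2.60 CPM per kilobase in the control libraries, so its place below Maml1, at 5.88 to 6.79 CPM per kilobase, was kept in both groups. Exon length counts every exon of every annotated transcript of a gene, so a gene with long alternative exons is set low on this scale.

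**Figure D2:**
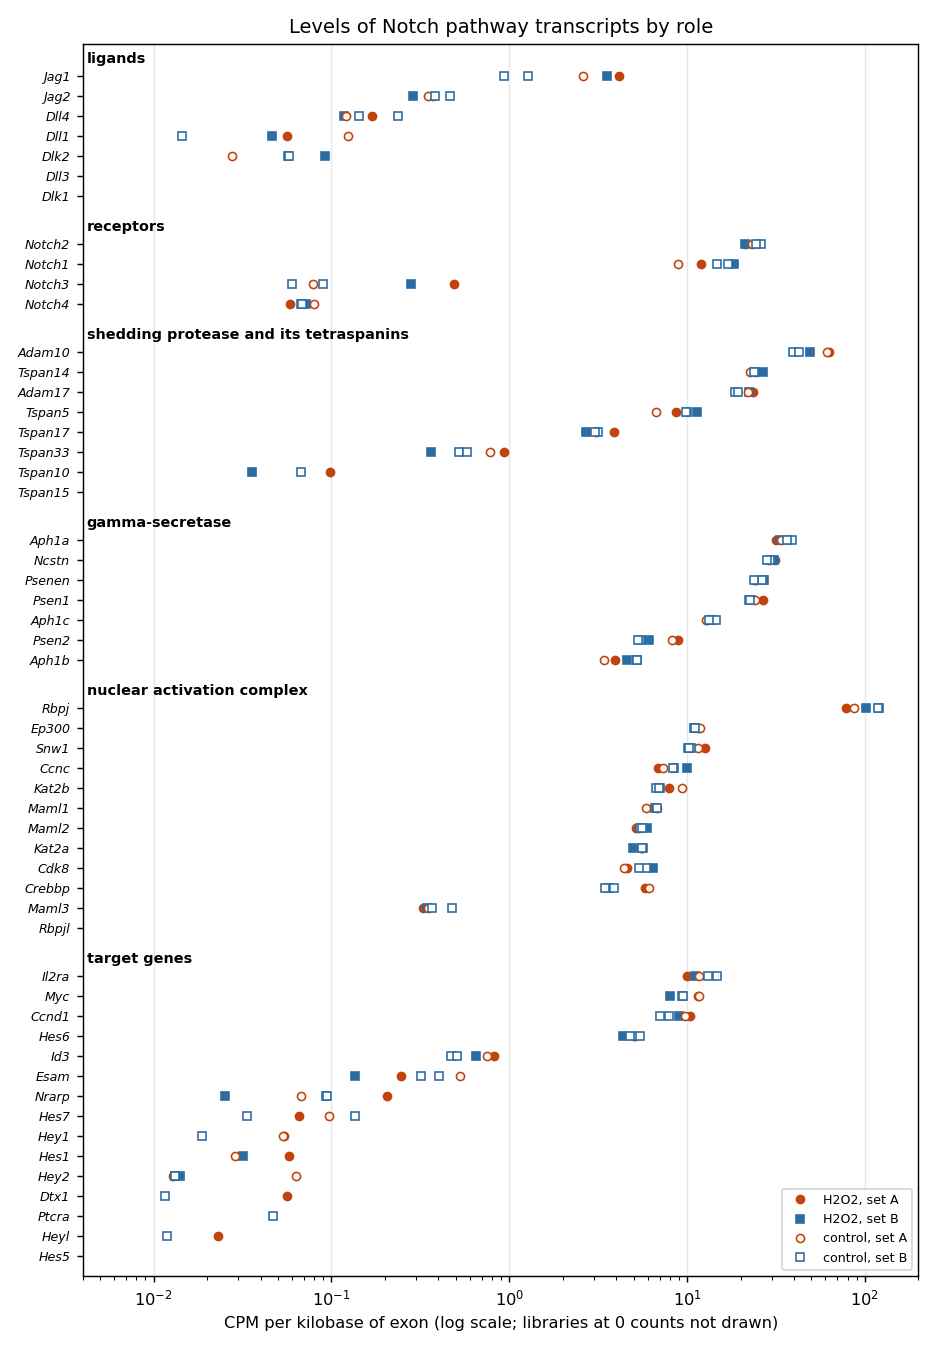
Level per kilobase of exon (CPM per kilobase, log axis) of ligands, receptors, shedding proteases, gamma-secretase subunits, nuclear factors and target genes in each library, with filled symbols for H2O2, open symbols for control, circles for set A and squares for set B, and libraries at 0 counts left out. Jag1 is the ligand with the highest level, Notch2 and Notch1 the receptors, and the Hes and Hey targets other than Hes6 lie near or below 0.1 CPM per kilobase.

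To place the 7 genes, a wider list of 94 Notch pathway genes was read in the same fit, grouped by role. Without Jag1 it held 93 genes, of which 74 passed the filter, 19 did not and 6 had 0 counts in every library. Among the 74, the test called 3 higher and 1 lower, 5.41% in all, where 3.93% of all genes were called higher and 4.61% lower. The count of 4 became 11 without control replicate 1, 9 without H2O2 replicate 1, 2 without control replicate 3 and 0 without H2O2 replicate 2 (10 at an unadjusted p under 0.05). The median log2 difference of the 74 was 0.0047, against 0.0089 over all genes tested. Both H2O2 libraries lay above every control library for 7 of them and below for 9, where 13% and 10.7% of all genes did so. Between the sets 33 of the 74 differed, 20 higher and 13 lower in set A, where 36% of all genes differed (19.1% higher and 16.9% lower).

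Among the ligands Jag2, a second Jagged ligand, had 2.60 and 2.01 CPM in the H2O2 libraries, against 2.44, 2.66 and 3.23 CPM in the control libraries. Its log2 difference was -0.26 ± 0.25 (adjusted p = 0.549). Dll4, a Delta-like ligand that instructs T helper cells, had 11 and 7 counts in the H2O2 libraries and 8, 15 and 9 counts in the control libraries (-0.16 ± 0.48, adjusted p = 0.859). The remaining ligands were not tested: Dll1 had at most 9 counts in a library, Dlk2 at most 3, and Dll3 and Dlk1 had 0 counts in every library. Per kilobase Jag1 averaged 2.50 CPM, against 0.372 for Jag2 and 0.157 for Dll4.

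Among the receptors Notch3, which is best known from vascular smooth muscle and early T cells, rose while staying low. It had 3.96 and 2.27 CPM in the H2O2 libraries, against 0.639, 0.725 and 0.488 CPM in the control libraries. These are 67 and 35 counts in the H2O2 libraries and 11, 12 and 8 counts in the control libraries, and the groups did not overlap. The rise was 2.21 ± 0.31 on the log2 scale, or 4.63-fold (edgeR's quasi-likelihood test with Benjamini-Hochberg adjustment, adjusted p = 0.0184), and stood at 2.42 within set A and at 1.73 within set B. The call was lost without H2O2 replicate 2 (adjusted p = 0.109) and without the filter on low counts (0.0548), in a range of 0.0054 to 0.690 over all alternatives. Per kilobase Notch3 still averaged 0.200 CPM, against 14.2 for Notch1. Notch4, an endothelial receptor, had 8 and 9 counts in the H2O2 libraries and 11, 9 and 9 counts in the control libraries and was not tested.

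Markers of endothelial and stromal cells, which are known for Jag1, Notch3 and Notch4, were low. Tek and Col3a1 had 0 counts in every library, and Cdh5 at most 3 counts. Of the 10 genes on that list 4 passed the filter and none was called, where 8.54% of all genes were. Their summed level was 81.2 and 125 CPM in the H2O2 libraries, against 86.9, 130 and 131 CPM in the control libraries, most of it from Pecam1, which dendritic cells also carry. Kdr, the endothelial VEGF receptor, had 50 and 125 counts in the H2O2 libraries and 20, 105 and 88 counts in the control libraries. Its log2 difference of 0.71 ± 0.23, H2O2 minus control, did not pass the test (adjusted p = 0.105). It was positive within each set, at 1.26 for set A and 0.46 for set B, as for Jag1 and Notch3. In the comparison of the sets its sign was opposite to theirs. Set A minus set B, Kdr stood at -1.84 ± 0.25 (adjusted p = 0.00194, same test), while Jag1 stood at 0.77 ± 0.24 and Notch3 at 0.55 ± 0.31. The Notch3 value was not called (adjusted p = 0.207, same test). All 4 tested markers of this list had a called negative value in that comparison. The relation of Kdr to Jag1 and Notch3 was not tested. Pdgfrb, a marker of mural cells, had 8 and 20 counts in the H2O2 libraries and 17, 31 and 30 counts in the control libraries (-0.68 ± 0.31, adjusted p = 0.201). The H2O2 differences of the other tested markers were -0.11 ± 0.066 for Pecam1 and 0.18 ± 0.21 for Lepr (adjusted p = 0.352 and 0.648, same test).

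Receptor glycosylation enzymes tune which ligand a receptor answers. Poglut1, which adds O-glucose to the receptors' EGF repeats, was the 1 gene called among 9 tested, where 8.54% of all genes were called. At 25.3 CPM per kilobase it was also the most abundant. Poglut1 had 129 and 79.9 CPM in the H2O2 libraries, against 176, 102 and 102 CPM in the control libraries. Within each set the H2O2 library was below its controls, and the fitted value fell by 0.39 on the log2 scale, with an SE of 0.068 (adjusted p = 0.0255, same test). The call was lost without control replicate 2, control replicate 3 or H2O2 replicate 2 (adjusted p = 0.0585, 0.0846 and 0.115), without the filter on low counts (0.0599) and with a replicate block (0.0660), in a range of 0.00674 to 0.895 over all alternatives. Gxylt2, a xylosyltransferase, had 0 counts in every library. Mfng, the Manic fringe glycosyltransferase, had 3.02 and 2.33 CPM in the H2O2 libraries, against 4.30, 5.50 and 5.00 CPM in the control libraries. Its groups did not overlap, and its difference of -0.86 ± 0.22 did not pass (adjusted p = 0.0595).

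No gene was called among 6 tested genes of the shedding group and 7 of gamma-secretase, where 8.54% of all genes were. Their most abundant members per kilobase were Adam10 and Aph1a, a gamma-secretase subunit, at 51.0 and 34.8 CPM per kilobase. Aph1a had 109 and 115 CPM in the H2O2 libraries, against 116, 135 and 126 CPM in the control libraries (-0.14 ± 0.072, adjusted p = 0.250). Tspan5, a tetraspanin that carries ADAM10 to the surface, had 64.1 and 83.7 CPM in the H2O2 libraries, against 49.5, 73.8 and 72.9 CPM in the control libraries (0.27 ± 0.076, adjusted p = 0.0753). Tspan15, another ADAM10 partner, had 0 counts in every library.

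Among 14 tested ubiquitin ligases and endocytic regulators, 1 was called, where 8.54% of all genes were. Dtx4, a Deltex ubiquitin ligase, had 126 and 61.9 CPM in the H2O2 libraries, against 75.7, 40.7 and 40.5 CPM in the control libraries. The pooled groups overlapped, while each H2O2 library was above the controls of its own set. The rise was 0.66 ± 0.071 on the log2 scale, or 1.58-fold (adjusted p = 0.0113, same test), with 0.73 within set A and 0.61 within set B. Its level also differed between the sets, set A minus set B, by 0.95 ± 0.071 (adjusted p = 0.000174). Without H2O2 replicate 2 its call was lost (adjusted p = 0.0973), in a range of 1.28e-05 to 0.725 over all alternatives. Cbl, a ubiquitin ligase and the most abundant of the group at 44.0 CPM per kilobase, had a log2 difference of -0.04 ± 0.066 (adjusted p = 0.757).

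Among 11 tested genes of the nuclear activation complex none was called, and Rbpjl, a paralog of Rbpj, had 0 counts in every library. Among 16 RBPJ corepressors 1 was called. Of all genes tested, 8.54% were called. Spen, which recruits repressors to RBPJ, had 119 and 93.5 CPM in the H2O2 libraries, against 102, 74.0 and 72.9 CPM in the control libraries. Its rise of 0.29 ± 0.069 on the log2 scale stood just inside the threshold (adjusted p = 0.0489, same test). The call was lost in 9 of 11 alternatives, among them leaving out control replicate 2, control replicate 3 or H2O2 replicate 2 (adjusted p = 0.145, 0.210 and 0.215). Tle5, a short Groucho-family member, was highest per kilobase of exon on the corepressor list, at 44.4 CPM per kilobase. It had 124 and 132 CPM in the H2O2 libraries, against 140, 170 and 173 CPM in the control libraries. Its groups did not overlap, and its difference of -0.29 ± 0.077 did not pass (adjusted p = 0.0645).

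Target genes showed no call among the 6 tested of 15, where 8.54% of all genes were called. The 9 that did not pass the filter were Hes1, Hes5, Hes7, Hey1, Hey2, Heyl, Nrarp, Dtx1 and Ptcra. Hes5 had 0 counts in every library. Nrarp, a feedback inhibitor of the pathway, had 9 and 1 counts in the H2O2 libraries and 3, 4 and 4 counts in the control libraries. Il2ra, the alpha chain of the interleukin-2 receptor, was the most abundant at 12.1 CPM per kilobase. It had 57.1 and 63.2 CPM in the H2O2 libraries, against 66.7, 84.1 and 74.9 CPM in the control libraries (-0.29 ± 0.083, adjusted p = 0.0793). Esam, which marks Notch2-dependent splenic dendritic cells, had 12 and 6 counts in the H2O2 libraries and 26, 19 and 15 counts in the control libraries (-1.22 ± 0.35, adjusted p = 0.0802). Both H2O2 libraries lay below every control library for Il2ra and Esam, as for 10.7% of all genes tested. The cyclin gene Ccnd1 had 48.7 and 42.6 CPM in the H2O2 libraries, against 46.0, 37.4 and 33.4 CPM in the control libraries (0.19 ± 0.090, adjusted p = 0.233). Id3, an inhibitor of DNA binding by other factors, had 25 and 18 counts in the H2O2 libraries and 23, 14 and 15 counts in the control libraries (0.28 ± 0.29, adjusted p = 0.582).

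**Figure D3:**
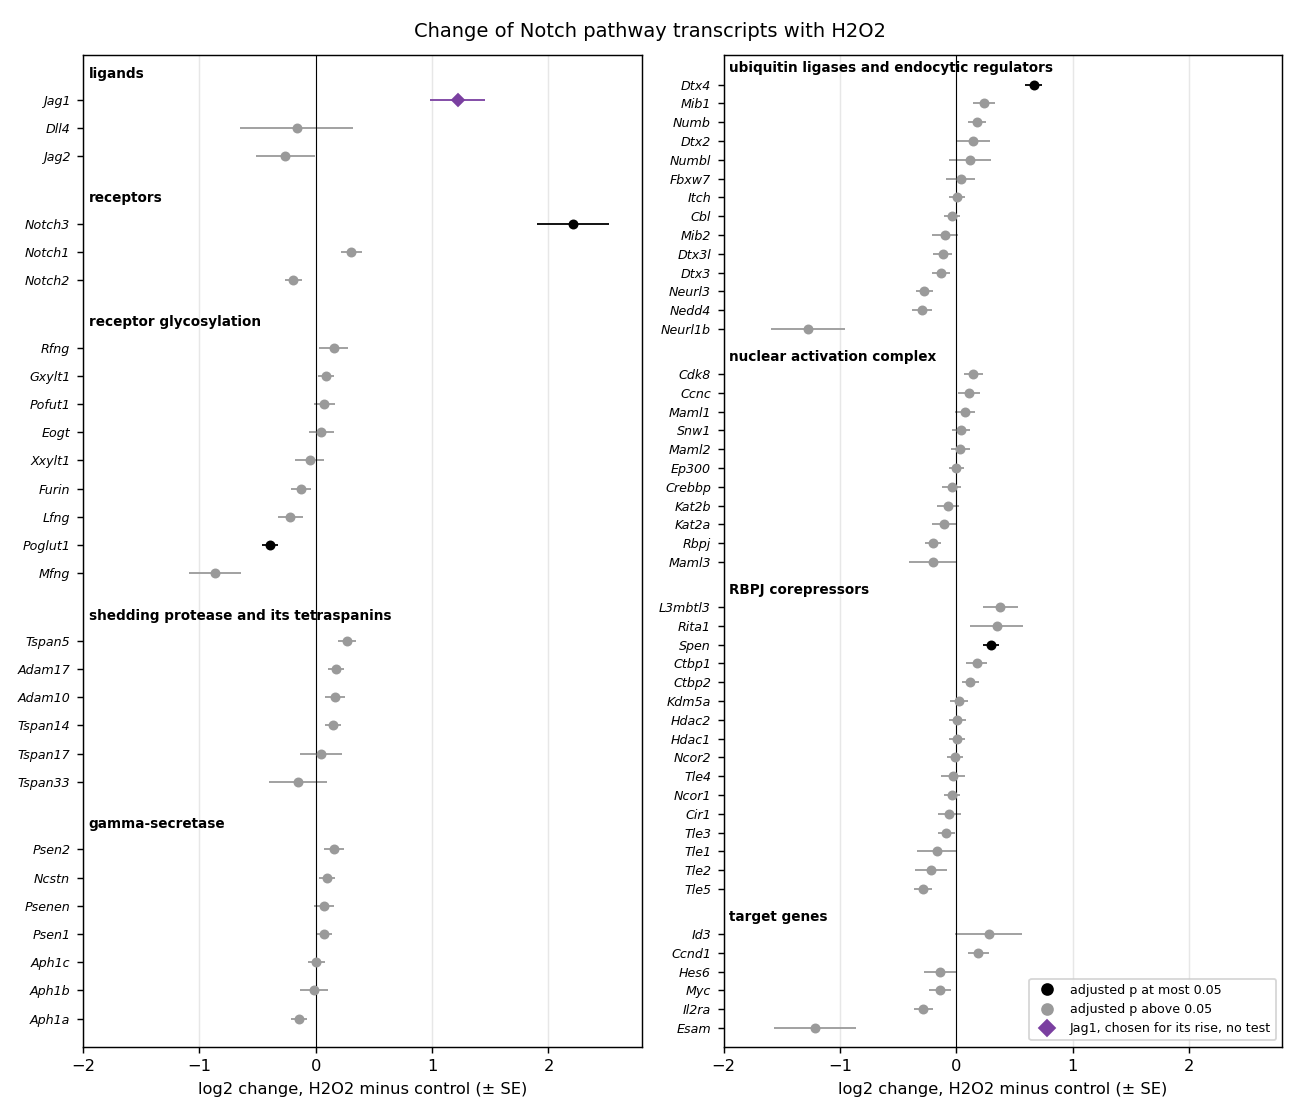
Fitted log2 difference, H2O2 minus control, for each tested gene of the wider list by role, with bars for 1 SE, black for an adjusted p of at most 0.05, grey for the rest and a diamond for Jag1, which carries no test. Jag1 (1.22) and Notch3 (2.21) stand furthest to the right, and apart from Dtx4, Mfng, Neurl1b and Esam the others lie between -0.5 and 0.5.

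Set differences and H2O2 differences were set side by side for each gene. Jag1, Dtx4, Spen and Adam10 had positive values in both comparisons, Notch1 had a negative set difference beside a positive H2O2 difference, and Rbpj had negative values in both. Outside the 7 genes, the ligand regulator Neurl1b had the highest set difference of the list, 1.85 on the log2 scale (adjusted p = 0.00383), beside -1.28 ± 0.32 for H2O2 (adjusted p = 0.0576). The receptor convertase Furin had the lowest set difference, -1.002 (adjusted p = 0.000315), beside -0.13 ± 0.085 for H2O2 (adjusted p = 0.375).

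**Figure D4:**
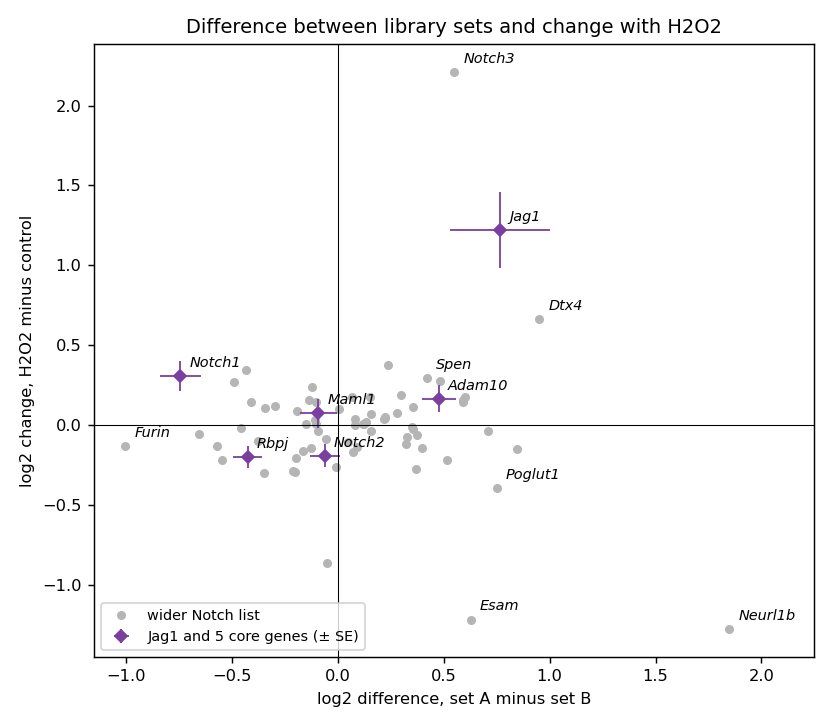
Log2 difference of set A minus set B (horizontal) against log2 difference of H2O2 minus control (vertical) for the tested genes of the wider list, with diamonds and SE bars for Jag1 and 5 core pathway genes and dots for the others. Jag1 lies at 0.77 and 1.22, Notch1 at -0.74 and 0.31, and Notch3 at 0.55 and 2.21.

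The genes whose levels over the 5 libraries were most like those of Jag1 were Il7r, Slc11a1, Ugt1a6a, Rnf128 and Slc40a1. Likeness was measured as the Euclidean distance between log2 CPM values centred on their mean, over the 8542 genes averaging 10 CPM or more, where the median gene lay at 1.87 from Jag1. Il7r, the interleukin-7 receptor alpha chain, was nearest at 0.347, with 407 and 389 CPM in the H2O2 libraries, against 302, 152 and 129 CPM in the control libraries. Slc11a1 (0.408) and Slc40a1 (0.474) are metal transporters, the second being the iron exporter ferroportin. Slc40a1 had 33.8 and 34.6 CPM in the H2O2 libraries, against 17.1, 9.97 and 9.08 CPM in the control libraries. Within the Notch list Dtx4 was nearest at 0.931 (rank 48 among all genes compared), and Notch3 followed at 1.28.

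The labelled cell type was checked by its markers. Itgax, which encodes CD11c, had 1496 and 2177 CPM in the H2O2 libraries, against 1473, 2154 and 1940.1 CPM in the control libraries, and Cd209a had at most 6 counts. The chemokine receptor gene Ccr7, on the same list, had 1275 and 357 CPM in the H2O2 libraries, against 1466, 445 and 422 CPM in the control libraries. Its set difference was 1.79 ± 0.068, set A minus set B (edgeR's quasi-likelihood test, adjusted p = 2.57e-05). Its bearing on the immature label was not tested. Between the sets 3 of the 9 tested dendritic cell markers were called higher and 3 lower in set A. Of 9 tested dendritic cell markers 5 were called lower with H2O2, as were 4.61% of all genes, among them Cd74 (-0.41 ± 0.073, adjusted p = 0.0259), which guides MHC class II. All 10 markers of dividing cells were called lower, with summed levels of 358 and 174 CPM in the H2O2 libraries, against 1106, 321 and 592 CPM in the control libraries. Of 8 basophil and mast cell markers 5 were called lower, with sums of 11.3 and 26.9 CPM in the H2O2 libraries, against 34.8, 59.4 and 85.5 CPM in the control libraries. Of 8 neutrophil markers 3 were called lower, of 7 macrophage markers 1 was called higher and 2 lower, and the 1 tested marker of T, NK and B cells was not called. Of all genes tested, 3.93% were called higher and 4.61% lower. The marker lists also differed between the sets. In set A all 10 markers of dividing cells were called higher, as were 19.1% of all genes. Lower in set A were 7 of 8 basophil and mast cell markers and 6 of 8 neutrophil markers, as were 16.9% of all genes. Of 7 macrophage markers 3 were higher and 1 lower. The part of these shifts in the values of Jag1, Notch3 and the other Notch genes was not tested.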

How the data were processed

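RNA was sequenced from mouse immature dendritic cells, with or without H2O2. The authors deposited 1 file of estimated counts per sample, not normalized, per the file headers. In each library 8.38% to 9.03% of values had a fractional part. HISAT, Bowtie2 and the build GRCm38.p6 are named by the submitters' processing notes. Counter, annotation and strand setting were not given in the sources used here. Exons of other genes overlap Notch1 (1482 bp), Notch3 (488 bp) and Maml1 (135 bp) on the opposite strand and Notch2 (541 bp) on the same strand. Among other genes named here, Nrarp (2051 bp) and Ccnd1 (1100 bp) are also overlapped on the opposite strand. With the strand setting not given, reads on opposite strands may or may not have been kept apart. Strand cannot tell the reads of Notch2 from those of its neighbour. Gene numbers were matched to RefSeq symbols for 17520 of 17567 rows (99.73%), and exon lengths came from a GENCODE annotation of the same build.

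The 7 genes, the wider list and the marker lists were chosen with earlier results of these data known, and so was the term for the library set (at least 100 Y-linked counts in set A). Rounded counts were filtered with filterByExpr of edgeR (at least 10 counts, total of 15) and scaled by TMM. The main model was edgeR's quasi-likelihood fit with set and treatment as terms (2 residual degrees of freedom, prior degrees of freedom 4.88). The difference of the H2O2 effect between the sets came from a model with an interaction (1 residual degree of freedom). Standard errors are the absolute log2 value over the square root of F. CPM is scaled to the TMM-adjusted library size, except for the Y-linked sums. Within-set values are differences of log2 CPM (prior count 2). In simulated data with known changes, the share of false calls in this model was above the nominal level. The limit that a count of 0 allows covers counting error only, while standard errors include the spread between libraries. Named genes are the 7 genes, the called, most abundant and undetected genes of each role, and the 5 nearest to Jag1. Jag2, Dll4, Notch4, Mfng, Tspan5, Nrarp, Esam, Ccnd1, Id3, Neurl1b, Furin and the markers were added after their values were seen. Alternatives were RLE scaling, no filter, DESeq2, limma-voom, no set term, a replicate block, and leaving out each library. Versions were DESeq2 1.42.0, limma 3.58.1, edgeR 4.0.16 and R 4.3.3.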

Additional observations from a re-analysis of the deposited data

How the results depend on the processing

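The count of genes called in H2O2 against control was 1043 with the set term and 0 without it in edgeR (852 at an unadjusted p under 0.05; DESeq2 was not run without the term). For the wider Notch list without Jag1 the counts were 4 and 0 (2 at an unadjusted p under 0.05). Without the filter on low counts 59 genes and 1 list gene were called. RLE scaling, DESeq2 and limma-voom stayed within 1.5 times of the count of all genes, and called 3 list genes each. Leaving out 1 library gave 1 to 2058 genes and 0 to 11 list genes: 2058 and 11 without control replicate 1, 1522 and 9 without H2O2 replicate 1, 721 and 3 without control replicate 2, 308 and 2 without control replicate 3, and 1 and 0 without H2O2 replicate 2 (10 list genes at an unadjusted p under 0.05). With either set A library left out, the set term takes up the other, and only H2O2 replicate 2 is compared with control replicates 2 and 3. With H2O2 replicate 2 left out, only H2O2 replicate 1 is compared with control replicate 1. The calls of Notch3, Dtx4, Spen and Poglut1 were all lost without the set term. They were also lost without H2O2 replicate 2, a fit that leaves 1 H2O2 library. There the log2 differences were 2.615 for Notch3, 0.729 for Dtx4, 0.222 for Spen and -0.447 for Poglut1. With all libraries they were 2.211, 0.663, 0.294 and -0.393.

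The replicate block, by the suffix of the sample titles and with 1 residual degree of freedom, called 552 genes and 2 list genes. The deviations of same-suffix libraries correlated at 0.810 and 0.714, over only 2 pairs. Each pair also lies within 1 set, so a pairing by suffix and the set cannot be told apart here. Poglut1 and Spen were not called under the block (adjusted p = 0.0660 and 0.178). The count between the sets stayed between 3098 and 4461. The count for the difference of the H2O2 effect between the sets was 2 in edgeR, 0 with RLE scaling, 0 without the filter and 43 with DESeq2, and it was not refitted with libraries left out, since no residual degree of freedom remains.

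The H2O2 difference of Jag1 ran from 0.67 to 1.68 on the log2 scale over the alternatives. This is a description only, since Jag1 was chosen for its rise. Notch1 and Adam10 stayed positive and Notch2 and Rbpj negative in every alternative run, without passing the threshold in any. Maml1 turned sign without control replicate 1 (-0.037) and without H2O2 replicate 1 (-0.027), with values of -0.037 to 0.206 over the libraries left out. Its set difference turned without control replicate 1, with values of -0.203 to 0.040. The cause of these shifts was not tested. The 2 distinct H2O2 libraries limit all estimates, and at 16232604 to 16672491 counts a library, genes such as Hes1 were under the limit of 3 counts.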
